A study of Homo sapiens with 51 samples.

Results

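The regions described here lie at the ends of zinc-finger genes on human chromosome 19. ATAC-seq, which counts insertions of a transposase into open chromatin, was deposited as 3 tables of read counts per called region, 1 for undifferentiated cells, 1 for cells under bone morphogenetic protein 4 (BMP4) and 1 for cells under a SMAD inhibitor kit (SMADi). A region was taken when the nearest end of a RefSeq protein-coding gene was within 1 kb of its midpoint and that gene's symbol was ZNF with a number; 8 such genes were left out by the rule. This gave 352 of 100584 regions in the day 0 table (0.35%), 397 of 142087 in the BMP4 table (0.279%) and 405 of 162317 in the SMADi table (0.25%). They belonged to 191, 192 and 200 genes, of 250 such genes on the chromosome. Every region of the set passed the filter on low counts in its table. The midpoint lay a median of 172, 227 and 225 bp from the gene end, and each counted region was 201 bp wide. Of the 405 SMADi regions, 353 lay at a 5′ end and 16 at a 3′ end, and for 36 the strand was not in the promoter table. In 11 of them a second gene ended equally near, so the naming of those is uncertain.

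All cells were H1, an established line of human embryonic stem cells, in 3 forms: wild type (WT), a line labelled KO and a line labelled DATG (ΔATG). The labels name neither the edited gene nor the number of clones behind each line. Undifferentiated cells were taken at day 0. Cells under BMP4, which drives mesoderm, were taken on days 1, 2, 3, 4 and 5. Those under SMADi, which drives neuroectoderm, were taken on days 1, 4 and 5. The 51 libraries were 18 WT, 17 KO and 16 DATG, with replicates lettered a and b in each line and day. Under SMADi a single library stood for KO on day 4 and for DATG on days 1 and 5.

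Zinc-finger proteins with C2H2 fingers are the most numerous family of human transcription factors, and many of those on chromosome 19 also carry a KRAB domain. The KRAB domain recruits the corepressor TRIM28, which brings SETDB1 and other writers and readers of H3K9 methylation, and the fingers direct this machinery to transposable elements and other targets. The genes arose by tandem duplication and sit in clusters. Most have a CpG-rich promoter that is open in many cell types. In a bulk library a lower count can come from fewer cells with an open region or from less opening per cell, and these cannot be told apart.

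Ordered along the chromosome and parted wherever over 500 kb held no such gene, the 250 genes fell into 10 clusters of 5 or more, with 14 genes outside them. The clusters are numbered here from the short-arm end: C1 at 2.82 to 2.94 Mb, C2 at 8.51 to 9.79 Mb, C3 at 11.48 to 12.63 Mb, C4 at 19.67 to 24.13 Mb, C5 at 34.68 to 34.96 Mb, C6 at 36.18 to 37.78 Mb, C7 at 43.53 to 44.5 Mb, C8 at 51.57 to 53.58 Mb, C9 at 55.48 to 56.67 Mb and C10 at 57.19 to 58.49 Mb. C10 is the most gene-rich with 43 genes, and C8 follows with 41. Of the 242 genes kept by the rule, 42 had no region in any table, among them 10 of 37 in C4, 4 of 42 in C10 and 3 of 5 in C5.

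For 4 genes the KO and DATG lines differed in all 3 tables, and the 250 bases before their starts are shown first. The windows are from RefSeq on GRCh38.p14, written 5′ to 3′ in the direction of the gene, and capitals mark the bases inside the region counted in the SMADi table. ZNF585B in C6 is read from the minus strand of chr19:37210537-37210786, ZNF431 in C4 from the plus strand of chr19:21141790-21142039, ZNF486 in C4 from the plus strand of chr19:20166964-20167213, and ZNF132 in C10 from the minus strand of chr19:58440154-58440403.

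ZNF585B: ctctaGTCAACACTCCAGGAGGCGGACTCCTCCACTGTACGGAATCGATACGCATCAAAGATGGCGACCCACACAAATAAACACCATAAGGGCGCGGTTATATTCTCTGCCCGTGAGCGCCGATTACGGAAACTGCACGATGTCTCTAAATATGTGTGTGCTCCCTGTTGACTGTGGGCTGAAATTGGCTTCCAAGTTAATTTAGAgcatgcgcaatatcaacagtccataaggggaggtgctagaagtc

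ZNF431: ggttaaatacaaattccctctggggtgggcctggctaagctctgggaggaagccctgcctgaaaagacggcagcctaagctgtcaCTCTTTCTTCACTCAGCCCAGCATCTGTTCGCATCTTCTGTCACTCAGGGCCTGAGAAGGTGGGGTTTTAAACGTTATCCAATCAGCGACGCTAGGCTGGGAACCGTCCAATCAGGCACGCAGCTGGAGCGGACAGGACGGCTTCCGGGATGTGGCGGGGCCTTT

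ZNF486: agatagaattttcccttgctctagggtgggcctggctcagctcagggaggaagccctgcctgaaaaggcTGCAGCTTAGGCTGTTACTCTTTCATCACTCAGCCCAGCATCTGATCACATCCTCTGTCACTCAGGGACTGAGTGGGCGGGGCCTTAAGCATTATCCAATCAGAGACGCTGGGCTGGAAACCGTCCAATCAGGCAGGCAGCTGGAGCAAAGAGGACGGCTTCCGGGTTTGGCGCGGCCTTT

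ZNF132: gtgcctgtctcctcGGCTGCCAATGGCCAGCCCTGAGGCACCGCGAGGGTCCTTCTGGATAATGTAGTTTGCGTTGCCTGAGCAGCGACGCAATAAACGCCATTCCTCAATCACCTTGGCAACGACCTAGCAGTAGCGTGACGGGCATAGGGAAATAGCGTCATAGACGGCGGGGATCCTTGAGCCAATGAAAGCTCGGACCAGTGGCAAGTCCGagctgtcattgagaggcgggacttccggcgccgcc

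A second group of 4 held the genes whose start regions lost the largest part of their signal under SMADi in both edited lines. ZNF528 in C8 is read from the plus strand of chr19:52397599-52397848, ZNF562 in C2 from the minus strand of chr19:9675101-9675350, ZNF439 in C3 from the plus strand of chr19:11848476-11848725, and ZNF875 in C6 from the plus strand of chr19:37312587-37312836.

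ZNF528: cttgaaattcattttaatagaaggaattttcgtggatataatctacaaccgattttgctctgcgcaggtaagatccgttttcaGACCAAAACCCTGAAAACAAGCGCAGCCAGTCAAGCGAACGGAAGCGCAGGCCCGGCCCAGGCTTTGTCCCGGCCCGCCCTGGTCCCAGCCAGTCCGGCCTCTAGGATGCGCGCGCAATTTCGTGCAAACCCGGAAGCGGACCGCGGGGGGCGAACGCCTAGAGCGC

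ZNF562: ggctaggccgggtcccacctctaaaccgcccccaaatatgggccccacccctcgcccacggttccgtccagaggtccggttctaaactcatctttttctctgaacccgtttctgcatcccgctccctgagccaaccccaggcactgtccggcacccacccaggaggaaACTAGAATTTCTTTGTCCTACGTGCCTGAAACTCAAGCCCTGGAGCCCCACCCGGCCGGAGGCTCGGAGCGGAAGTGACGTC

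ZNF439: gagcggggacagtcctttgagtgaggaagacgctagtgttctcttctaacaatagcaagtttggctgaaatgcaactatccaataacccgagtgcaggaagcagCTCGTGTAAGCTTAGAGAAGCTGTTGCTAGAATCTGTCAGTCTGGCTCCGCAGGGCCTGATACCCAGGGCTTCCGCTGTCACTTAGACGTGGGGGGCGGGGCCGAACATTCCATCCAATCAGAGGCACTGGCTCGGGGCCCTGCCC

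ZNF875: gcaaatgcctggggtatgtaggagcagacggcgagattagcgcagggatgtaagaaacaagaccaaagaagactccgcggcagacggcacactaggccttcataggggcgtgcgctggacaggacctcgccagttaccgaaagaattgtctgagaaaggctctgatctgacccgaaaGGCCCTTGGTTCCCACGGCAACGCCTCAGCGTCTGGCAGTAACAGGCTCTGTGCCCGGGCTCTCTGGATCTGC

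Promoters were found for 179 of the genes, as windows of 250 bases before the start to 50 after; where a gene had several, the one nearest its highest region was used, a choice not made for the other genes. They held a median of 20 CpG, beside 22 in the first listed promoter of 15840 protein-coding genes. On either strand, CCGGAAG, the ETS-type core, stood in 43.0% of them and in 14.2% of those 15840. CCAAT, the NF-Y box, stood in 53.1% against 36.4%, GGGCGG, the GC box, in 67.0% against 58.5%, ATGGCG in 18.4% against 14.3%, TGACGT in 10.6% against 9.67%, and GCATGCG in 3.91% against 5.14%. No motif searched contains another, and a match is a description only. The 8 genes with a window and a 5′ region over 2-fold lower in KO under SMADi held a median of 18.5 CpG, and so did the 8 such genes of DATG. Of the genes whose bases are shown above, some had a promoter window close to another in local alignments to all listed promoters of chromosome 19 zinc-finger genes. The best match of the ZNF431 window was ZNF714, identical at 91.3% of aligned positions. That of ZNF486 was ZNF90 at 89.7%, that of ZNF439 was ZNF69 at 86.3% and that of ZNF562 was ZNF561 at 80.4%. The best match of ZNF585B was the left-out ZNF585A at 78.2%. Weaker best matches were ZNF584 for ZNF132 (67.3% of 159 positions), ZNF534 for ZNF528 (66.4% of 301) and ZNF544 for ZNF875 (63.8% of 130). How the aligner treated reads that fit 2 copies is not given in the sources used here, and a sharing of reads between such copies was not tested.

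Open chromatin at these ends was above the level of most regions. Their median was 3.82 log2 CPM (counts scaled to library size) at day 0, 3.41 under BMP4 and 3.46 under SMADi, beside 2.85, 2.27 and 2.04 over all regions. Zinc-finger gene ends on other chromosomes had medians of 3.63, 3.09 and 3.17, and other gene ends on chromosome 19 had 3.4, 2.88 and 2.88. The highest region in every table was at ZNF8 in C10. Counts in regions summed to between 4019778 and 23252871 per library. Regions of the pluripotency, mesoderm, neuroectoderm and other marker genes were present for 24 of 26 genes at day 0, 26 of 26 under BMP4 and 25 of 26 under SMADi. GATA4 and THY1 had none at day 0, and THY1 had none under SMADi. Some marker regions moved with the lines as well. Under BMP4 both regions of APLNR, a mesoderm marker, were lower in both edited lines. Summed over them the mean on day 4 was 40.6 CPM in WT, 13.9 in KO and 22.4 in DATG. Other mesoderm markers followed less. TBXT was called at 0 of 3 regions in both lines. HAND1 was lower at 3 of 7 and MESP1 at 1 of 2 in KO, and both at 0 in DATG. MIXL1 was lower at 2 of 4 in KO and 1 in DATG. Under SMADi SOX1, a neuroectoderm marker, was higher at 3 of 5 regions in both, with summed means of 32.9, 72.8 and 61.0 CPM on day 5 in WT, KO and DATG, and TFAP2A was lower at 3 of 3 in KO and 2 of 3 in DATG. Other neuroectoderm markers did not follow SOX1: ZIC1 was lower at 1 of 3 regions in both lines and higher at 0. PAX6 and OTX2 were each higher at 1 of 3 in KO and at 0 in DATG, and LHX2 at 0 of 5 in KO and 1 in DATG. Under SMADi APLNR was higher at 1 of 1 region in both lines, and GATA6 at 2 of 5 in KO and 1 in DATG. TBXT was lower at 2 of 5 and higher at 1 in KO, and lower at 1 in DATG. The part of these in the results at zinc-finger ends was not tested.

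**Figure D1:**
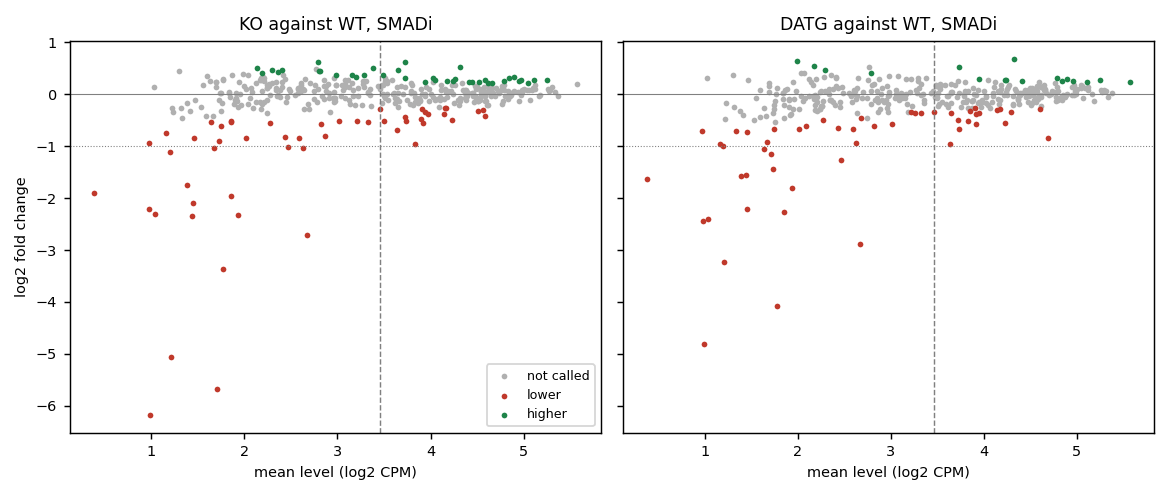
Mean level and line difference of each chromosome 19 zinc-finger end region under SMADi. The horizontal axis is the mean level in log2 CPM over the table's libraries, the vertical axis the log2 fold change against WT, with KO on the left and DATG on the right; grey points were not called, red were lower and green higher, the dashed line is the members' median level and the dotted line a 2-fold loss, and the points under the dotted line lie among the weaker regions.

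One library went against its label at the genes that separate the lines. Replicate b of day 1 under SMADi, a library labelled KO, had 2.55 CPM at ZNF585B, where KO day 1 replicate a had 0.392 and the DATG day 1 library 3.07. At ZNF431 it had 23.7, beside 12.9 and 28.2. At ZNF486 it had 16.7, beside 23.7 and 18.0. At ZNF132 it had 7.57, beside 15.1 and 10.9. In each of the 4 it lay nearer to the DATG library of that day than to the other KO library, so the counts of KO calls under SMADi, and its values at the genes described most closely, are given with and without it. The counts by day, neighbour and cluster part without it were added after the data were seen. Other KO values under SMADi include it.

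In undifferentiated cells few differences between the lines were called at these gene ends. The 8 genes left out by the rule are not counted, and at their 11 regions KO was lower at 6 and DATG at 0. KO was lower than WT at 1 of the 352 regions and higher at 0, and DATG was lower at 0 and higher at 0, by edgeR's quasi-likelihood test with Benjamini-Hochberg adjustment over all regions. Without adjustment, 37 regions had p under 0.05 in KO, 8 of them lower, and 20 in DATG, 10 of them lower, beside 8351 and 8877 of all 100582 regions tested. Over all regions of the table, 0.0318% were lower and 0.0537% higher in KO, with 0.0298% over 2-fold lower, and 0.165% were lower and 0.0408% higher in DATG, with 0.148% over 2-fold lower. KO and DATG differed from each other at 4 regions (1.14%), where 0.329% of all regions did. The 4 regions were those at the starts of ZNF585B, ZNF431, ZNF486 and ZNF132. With 2 libraries a line these calls were fragile apart from ZNF585B: DESeq2 gave adjusted p of 1.0 at ZNF431 and ZNF486 and 0.357 at ZNF132, and leaving out KO day 0 replicate a or b ended the calls at ZNF431 (0.0753 and 0.182) and ZNF486 (0.31 and 0.166). The calls also ended without DATG day 0 replicate a at ZNF486 (0.336) and ZNF132 (0.185) and without its replicate b at ZNF431 (0.272).

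ZNF585B, a KRAB zinc-finger gene beside its close paralog ZNF585A, held the one region of the set lost in KO at day 0. The 2 WT libraries had 6.23 and 6.65 CPM, the 2 DATG libraries 4.86 and 6.51, and the 2 KO libraries 0.217 and 0.611. KO lay far below both other lines, which overlapped. The log2 fold change of KO against WT was -3.78 ± 0.47 (SE; adjusted p = 1.32e-09, edgeR), and that of KO against DATG was -3.62 ± 0.48.

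The same start was low in KO on every day of BMP4. The lowest, median and highest of the 10 WT libraries were 2.68, 3.88 and 4.95 CPM, those of DATG 2.41, 4.83 and 6.19, and those of KO 0, 0.206 and 0.956. All KO libraries lay below all libraries of the other lines. The mean over days of the KO difference was -4.69 ± 0.30 (adjusted p = 5.66e-26, edgeR), and DATG differed from WT by 0.19 with an adjusted p of 0.41. Of the nearest genes with a region on either side, ZNF568 had -0.28 ± 0.08 in KO (adjusted p = 0.00921), and the 2 start regions of ZNF383 had -0.09 and -0.08 and were not called.

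Under SMADi ZNF585B was low in KO and reduced in DATG. The 6 WT libraries ranged from 4.13 to 7.5 CPM with a median of 5.75. The DATG libraries had 3.07 on day 1, 1.21 and 2.42 on day 4 and 3.11 on day 5. The KO libraries had 0.392 and 2.55 on day 1, 0 on day 4, and 0.215 and 0 on day 5. Every KO and DATG library lay under the lowest WT library, and the KO library of 2.55 was the one that went against its label. The log2 fold change was -5.69 ± 0.48 in KO (adjusted p = 2.07e-11), or -6.33 without that library, and -1.15 ± 0.25 in DATG (adjusted p = 0.000738). KO against DATG gave -4.54 ± 0.60, or -5.18 without it. The DATG loss at ZNF585B did not pass with DESeq2 (-1.15, adjusted p = 0.123), and the KO against DATG difference did not pass without DATG day 5 replicate a (-4.37, adjusted p = 0.0997).

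ZNF431, in the pericentromeric cluster C4, was moderately lower in KO, and DATG was not called. At day 0 the WT libraries had 22.8 and 30.6 CPM, KO 18.7 and 20.0, and DATG 28.2 and 34.8. Under BMP4 the lowest, median and highest values were 20.1, 23.4 and 26.8 in WT, 11.1, 13.1 and 15.7 in KO, and 18.6, 22.4 and 28.9 in DATG. KO lay below the other lines with no overlap, and WT and DATG overlapped. The difference was -0.81 ± 0.08 in KO (adjusted p = 9.54e-13, edgeR) and -0.01 in DATG, and the second start region gave -0.67 and 0.11. Under SMADi KO gave -0.42 ± 0.11 (adjusted p = 0.00245), or -0.59 without the library named above; with DESeq2 it was -0.40 and did not pass (adjusted p = 0.0878). ZNF714, whose promoter is the nearest in sequence, was not called under BMP4 at either of its regions, with -0.10 ± 0.07 and -0.02 ± 0.11 in KO.

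ZNF486, in the same cluster, was lower in DATG. At day 0 WT had 32.5 and 36.6 CPM, KO 34.3 and 36.7, and DATG 22.5 and 26.0. Under BMP4 the values were 26.6, 32.5 and 36.5 in WT (lowest, median, highest), 25.5, 29.0 and 32.8 in KO, and 12.9, 17.5 and 19.4 in DATG. DATG lay apart from both other lines, which overlapped. Its difference from WT was -0.89 ± 0.07 (adjusted p = 6.38e-21, edgeR), beside -0.11 in KO. Under SMADi the DATG libraries had 18.0 on day 1, 16.2 and 12.1 on day 4 and 17.3 on day 5, all under the lowest WT library at 25.9, with a difference of -0.85 ± 0.10 (adjusted p = 1.62e-08). ZNF90, its nearest match in promoter sequence, had -0.01 ± 0.07 and -0.06 ± 0.12 in KO and 0.00 ± 0.07 and -0.09 ± 0.12 in DATG under BMP4.

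ZNF132 in C10 went up in KO and down in DATG under BMP4. At day 0 WT had 19.9 and 24.0 CPM, KO 29.5 and 31.2, and DATG 14.6 and 20.2. Under BMP4 the values were 10.6, 13.7 and 15.7 in WT, 18.9, 21.2 and 28.7 in KO, and 6.08, 8.61 and 9.53 in DATG. The 3 lines did not overlap. KO rose by 0.75 ± 0.07 (adjusted p = 9.61e-15) and DATG fell by 0.67 ± 0.09 on the log2 scale (adjusted p = 1.08e-08), and KO exceeded DATG by 1.42 ± 0.08 (adjusted p = 1.47e-29, edgeR). Under SMADi DATG was again lower, by -0.96 ± 0.15 (adjusted p = 5.75e-06), while KO gave 0.14 ± 0.13 (adjusted p = 0.423), or 0.28 without the library named above (adjusted p = 0.0804).

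**Figure D2:**
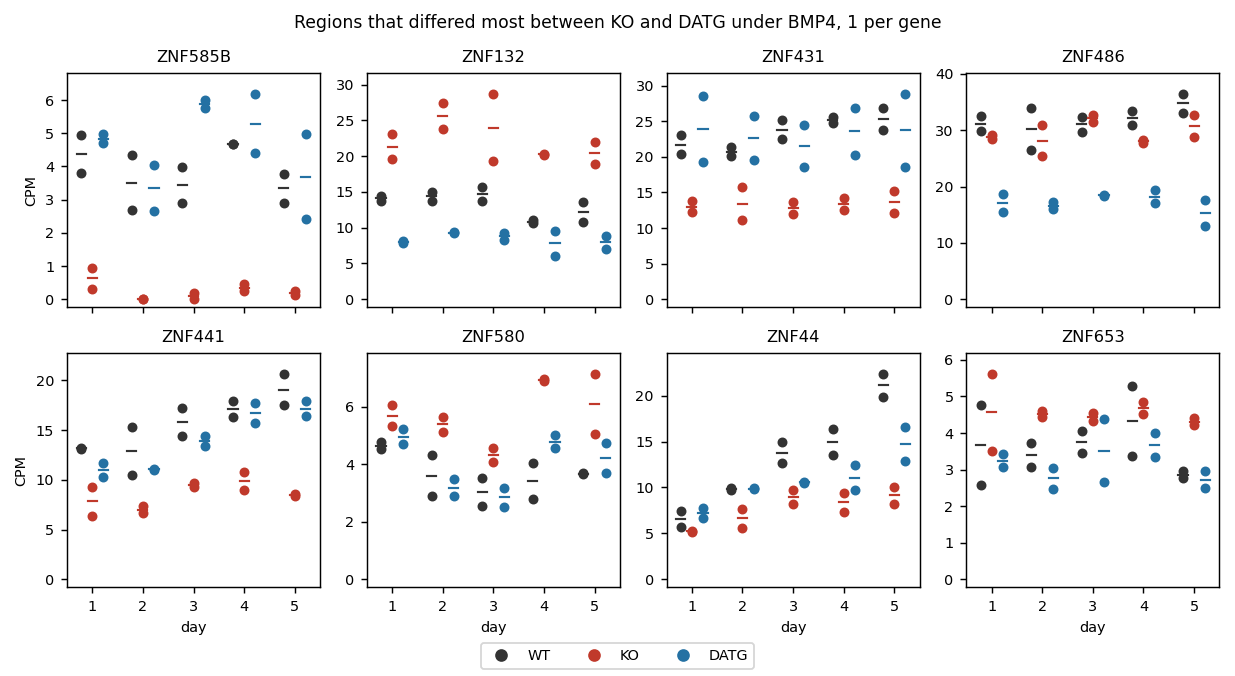
CPM in every library of the BMP4 table at the regions that differed most between KO and DATG, 1 per gene for 8 genes. The horizontal axis is the day, the vertical axis CPM, each point is 1 library, short bars are day means and colours are the lines; the KO points of ZNF585B lie at or below 0.956, and the 3 lines of ZNF132 do not overlap.

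Under BMP4 losses at the chromosome 19 zinc-finger ends kept by the rule were few and small. The 8 genes left out by the rule differed. At their 12 regions KO was lower at 8, each by over 2-fold, and higher at 1, and DATG was lower at 0. KO was lower at 20 of 397 regions (5.04%) in 15 genes and higher at 8 (2.02%), where 12.4% of all regions were lower and 9.1% higher. DATG was lower at 9 (2.27%) in 8 genes and higher at 1 (0.252%), where 5.21% and 4.12% of all regions were. Of the 397 regions only ZNF585B in KO fell by over 2-fold, and in DATG 0 did. Over all regions 1.96% and 0.179% did. Both lines are compared with the same WT libraries. Zinc-finger ends on other chromosomes were lower in KO at 26 of 518 (5.02%) and higher at 9 (1.74%), and other gene ends on chromosome 19 at 78 of 2189 (3.56%) and 198 (9.05%). KO and DATG differed at 13 regions (3.27%), where 1.84% of all regions did.

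By count, most of the KO losses lay in 3 clusters. C6 had 5 of 39 regions lower (12.8%), C3 had 6 of 54 (11.1%) and C8 had 5 of 71 (7.04%), with 2 of 55 in C4 and 1 each in C1 and C10. Since 12.4% of all regions were lower in KO, C6 was near that share and C3 and C8 were under it. C9 had 4 regions higher of 39 (10.3%), beside 9.1% of all regions. In DATG C6 had 3 of 39 (7.69%), C10 2 of 64 (3.12%) and C3 2 of 54 (3.7%), with 1 each in C1 and C4, beside 5.21% of all regions. No test of a difference between clusters was made.

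In C3 the start of ZNF441 was lower in KO. WT ranged from 10.5 to 20.7 CPM with a median of 15.8, DATG from 10.3 to 17.9 with 13.9, and KO from 6.37 to 10.8 with 8.77. KO overlapped the others at its upper edge alone. The difference was -0.87 ± 0.08 in KO (adjusted p = 1.56e-15, edgeR) and -0.18 in DATG, and at the second region, 284 bp from the gene end, -0.81 and -0.41 ± 0.09, the latter with an adjusted p of 0.00116. A region 919 bp from an end of ZNF44 had 5.64, 13.1 and 22.4 CPM in WT (lowest, median, highest) and 5.18, 7.93 and 10.1 in KO, a difference of -0.71 ± 0.09. Its start regions, at medians of 38.8 in WT and 35.7 in KO for the stronger of them, were not called.

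In C6 the 2 regions at the 3′ end of ZNF565 were lower in both lines, by -0.57 and -0.74 ± 0.16 in KO and by -0.50 and -0.52 ± 0.15 in DATG, while none of its 5′ regions was called. The 3′ end of ZNF607 in the same cluster was higher, by 0.61 in KO (adjusted p = 0.00031) and 0.42 in DATG (adjusted p = 0.043, and 0.231 with DESeq2). The largest gain in KO was at ZNF132, and ZNF580 in C9 gained 0.61 ± 0.12 (adjusted p = 2.76e-05) 770 bp from its end.

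Under BMP4 more of these regions were called between days in WT than between lines. From day 1 to day 5 of BMP4 in WT, 100 of 397 were higher (25.2%) and 13 lower (3.27%), where 20.3% of all regions were higher and 14.7% lower. Scaled by total counts instead of TMM, 53 were higher (13.4%) and 26 lower (6.55%), where 15.8% and 22.6% of all regions were. The median of all regions then moves from -0.0284 to -0.167, and the members' median stays about 0.25 above it under both scalings. Over the same days zinc-finger ends on other chromosomes had 131 higher and 22 lower, and other chromosome 19 ends 619 and 165. Leaving out WT day 1 replicate a gave 60 called in either direction in place of 113, and leaving out WT day 5 replicate a or b 65 or 69. The change between days differed from that of WT at 2 regions in KO (0.504%) and 0 in DATG, where 2.09% and 0.076% of all regions did. DESeq2 called 0 for KO, and without KO day 1 replicate b or KO day 5 replicate a edgeR called 0 as well, while without KO day 5 replicate b it called 5.

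Those 2 regions were at ZNF587B and ZNF8, both in C10. The ZNF587B region, 901 bp from the gene end, had 1.68 and 1.08 CPM in WT on day 1 and 11.0 and 11.4 on day 5. KO had 1.18 and 2.71 on day 1 and 2.04 and 4.01 on day 5, and DATG had 1.42 and 1.18, then 5.38 and 4.47. Opening was thus strongest in WT, and the start region of the gene, at a median of 32.5 in WT and 34.1 in KO, was not called. WT rose by 2.99 ± 0.28 (adjusted p = 9.26e-17, edgeR), and the rise in KO was smaller by -2.34 (adjusted p = 0.00535). ZNF8 has a second region that went from 10.1 and 9.80 to 14.9 and 15.1 CPM in WT and from 12.9 and 12.3 to 10.3 and 9.97 in KO, an interaction of -0.90 (adjusted p = 0.0388). Regions at ZNF850 and ZNF44 also opened in WT, by 2.25 ± 0.30 and 1.70 ± 0.17.

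Called losses were larger and more numerous under SMADi than under BMP4, but the regions counted differ between the conditions. ZNF528, ZNF562, ZNF439 and ZNF875, described below, had no region under BMP4. KO was lower at 52 of 405 regions (12.8%) in 42 genes and higher at 38 (9.38%), and DATG was lower at 52 (12.8%) in 46 genes and higher at 17 (4.2%). Over all regions KO was lower at 21.6% and higher at 17.9%, and DATG lower at 17.4% and higher at 11.1%. The shares among the zinc-finger ends kept by the rule were thus under the background. At the 12 regions of the left-out genes KO was lower at 10, with 9 over 2-fold, and DATG was lower at 4. Scaled by total counts, KO had 63 lower (15.6%) and 21 higher (5.19%), where 24.5% and 13.9% of all regions were. DATG then had 68 (16.8%) and 8 (1.98%), where 19.8% and 8.19% of all regions were. Losses of over 2-fold were called at 17 regions of 15 genes in KO (4.2%) and at 16 regions of 14 genes in DATG (3.95%), beside 9.12% and 8.28% of all regions. No region gained over 2-fold in either line. The counts of higher regions rested on single libraries: in KO they ran from 19 without KO day 4 replicate b to 77 without WT day 5 replicate b, and in DATG from 3 without DATG day 5 replicate a to 49 without DATG day 1 replicate a. Without the library labelled KO day 1 replicate b, KO had 50 lower, 26 higher and 19 over 2-fold lower, where 19.3% of all regions were lower.

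Other groups of gene ends gave different balances in the same fit. Zinc-finger ends on other chromosomes were lower in KO at 24 of 494 (4.86%) and higher at 120 (24.3%), and lower in DATG at 22 (4.45%) and higher at 67 (13.6%). Other gene ends on chromosome 19 were lower in KO at 227 of 2069 (11.0%) and higher at 452 (21.8%), and lower in DATG at 172 (8.31%) and higher at 227 (11.0%). These shares were not tested against each other. KO and DATG differed at 4 regions (0.988%), where 0.0598% of all regions did, and these were again ZNF585B, ZNF431, ZNF486 and ZNF132. Without DATG day 5 replicate a only ZNF486 stayed called, and without KO day 4 replicate b only ZNF585B.

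The shares differed by day, in a comparison added after the data were seen and without a test between days. On day 1 KO was lower at 11 regions (2.72%) and higher at 0, where 0.611% and 0.282% of all regions were, and DATG was lower at 9 (2.22%) and higher at 1 (0.247%), where 0.325% and 0.304% were. On day 4 KO was lower at 33 (8.15%) and higher at 12 (2.96%) against 14% and 10.9% of all regions, and DATG lower at 47 (11.6%) and higher at 15 (3.7%) against 17.4% and 13.2%. On day 5 KO was lower at 36 (8.89%) and higher at 62 (15.3%) against 21.0% and 19.2%, and DATG lower at 25 (6.17%) and higher at 32 (7.9%) against 14.6% and 12%. On day 1 DATG was 1 library and KO was 2, of which 1 went against its label, and a lone library was taken to vary like the other groups. Without that library KO was lower on day 1 at 7 regions (1.73%), where 0.134% of all regions were, on day 4 at 31 (7.65%) and on day 5 at 34 (8.4%). Over all regions the shares lower without it were 13.3% on day 4 and 20.5% on day 5. With that library, the KO losses of day 1 were at ZNF562 and ZNF439 with 2 regions each and at ZNF441, ZNF69, ZNF585B, ZNF875, ZNF225, ZNF649 and ZNF528. Without it they were at ZNF431, ZNF439, ZNF441, ZNF528, ZNF562, ZNF568 and ZNF585B. Those of DATG were at ZNF562 and ZNF439 with 2 each and at ZNF557, ZNF577, ZNF528, ZNF83 and ZNF628.

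ZNF528 in C8 was nearly closed in both edited lines. Its start region had 3.42 and 3.25 CPM in WT on day 1, 4.82 and 5.17 on day 4 and 6.76 and 5.03 on day 5. KO had 0 and 0, then 0.269, then 0.0716 and 0.128, which is 7 reads over the 5 libraries. DATG had 0.166, then 0.134 and 0.182, then 0.139, which is 10 reads over 4. WT and the edited lines were far apart on every day. The log2 fold change was -6.18 ± 0.41 in KO (adjusted p = 4.58e-15, edgeR; -6.17 without the library that went against its label) and -4.82 ± 0.36 in DATG (adjusted p = 1.56e-13). The day 0 and BMP4 tables hold no region at this gene.

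ZNF562 in C2 lost both of its start regions. The nearer one, 18 bp from the gene end, ranged from 5.51 to 8.71 CPM in WT with a median of 7.88. KO had 0.471 and 0.826 on day 1, 0.808 on day 4, and 0.787 and 0.639 on day 5, and DATG had 1.33, then 0.269 and 0.182, then 0.278. All edited libraries lay below all WT libraries. The differences were -3.36 ± 0.23 in KO (adjusted p = 5.6e-15) and -4.08 ± 0.27 in DATG (adjusted p = 4.3e-15), and at the second region -5.06 ± 0.39 and -3.23 ± 0.29. Without KO day 1 replicate b the KO values were -3.52 and -4.99. Its neighbour and nearest match in sequence, ZNF561, averaged 12.1 CPM in WT, 13.3 in KO and 13.2 in DATG and was not called.

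ZNF439 in C3 lost its start region and a second one 921 bp away. The start had 8.95 and 10.7 CPM in WT on day 1, 12.3 and 13.2 on day 4 and 23.1 and 13.9 on day 5. KO had 2.12 and 0.757, then 2.63, then 2.15 and 2.23, and DATG had 2.91, then 1.14 and 1.33, then 1.53. The edited lines lay below WT with no overlap. The differences were -2.70 ± 0.18 in KO (adjusted p = 4.78e-15) and -2.88 ± 0.20 in DATG (adjusted p = 1.18e-14, edgeR), and -2.32 ± 0.20 and -1.81 ± 0.20 at the second region. Without KO day 1 replicate b the KO values were -2.50 and -2.35. At day 0 the same gene had 3.59 and 4.91 CPM in WT, 3.52 and 3.69 in KO, and 1.73 and 1.88 in DATG, where the DATG difference of -1.26 ± 0.34 did not pass (adjusted p = 0.0821). ZNF69, the next gene and its nearest match in sequence, had smaller losses at its start of -0.50 in KO and -0.55 in DATG.

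ZNF875 in C6 had 5.23 and 5.72 CPM in WT on day 1, 7.08 and 7.66 on day 4 and 2.35 and 9.80 on day 5. KO had 0.941 and 1.45, then 1.75, then 1.57 and 2.62, and DATG had 1.41, then 0.739 and 1.33, then 1.62. One WT day 5 library, at 2.35, fell within the range of KO, and the other WT libraries lay above both lines. The differences were -1.97 ± 0.24 in KO (adjusted p = 5.03e-08; -2.08 without KO day 1 replicate b) and -2.26 ± 0.27 in DATG (adjusted p = 3.12e-08).

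**Figure D3:**
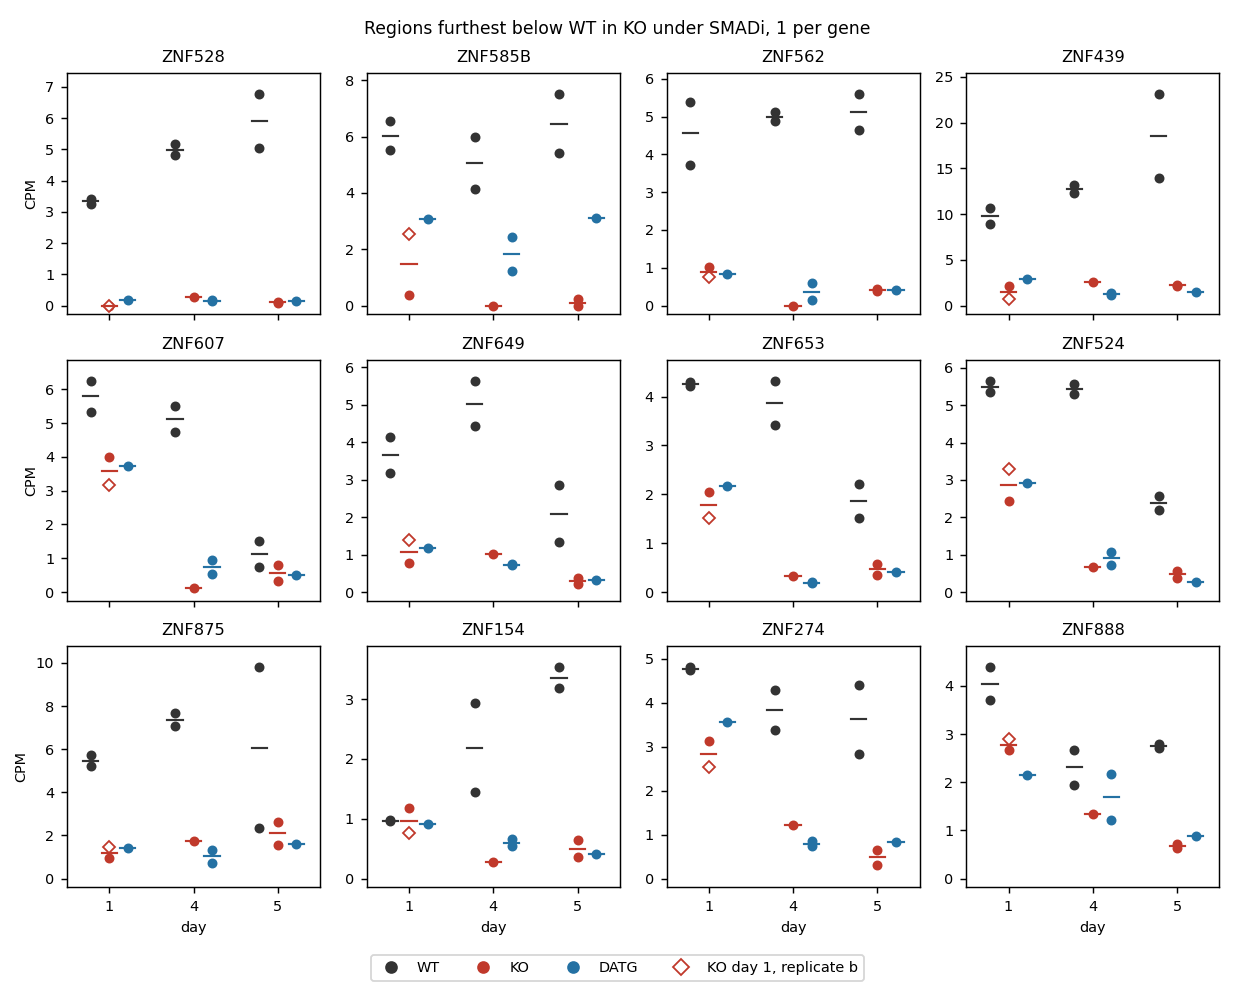
CPM in every SMADi library at the regions furthest below WT in KO, 1 per gene for 12 genes. The horizontal axis is the day, the vertical axis CPM, each point is 1 library, short bars are day means, colours are the lines and the open diamond is the library labelled KO day 1 replicate b; at ZNF439 WT reaches 23.1 CPM while KO stays at or below 2.63 and DATG at or below 2.91.

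Several of the other large losses lay away from a start region that was not called lower. At ZNF649 in C8 the region 849 bp from the gene end had a mean of 3.59 ± 1.49 CPM in WT (SD, n = 6), 0.754 ± 0.47 in KO (n = 5) and 0.738 ± 0.34 in DATG (n = 4), giving -2.30 ± 0.27 and -2.40 ± 0.29 (SE). Its start region averaged 12.9, 11.9 and 13.0 and was not called. At ZNF653 in C3 a region at the 3′ end gave -2.22 in KO (adjusted p = 4.8e-08) and -2.44 in DATG (adjusted p = 2.9e-08), while the start region 2 bp from the gene end was higher in KO, by 0.51. At ZNF524 in C9 a region 683 bp from an end gave -2.09 and -2.20, and the region 73 bp from it 0.32 and 0.26. At ZNF274, which directs H3K9 methylation to zinc-finger gene clusters, the region at 952 bp gave -1.75 and -1.57. The 3′ ends of ZNF607 and ZNF154 gave -2.35 ± 0.32 and -1.90 in KO and -1.56 ± 0.27 and -1.63 in DATG, where ZNF154 gave -0.96 without DATG day 5 replicate a (adjusted p = 0.105). Of the 16 regions at 3′ ends, 5 were lower in each line (31.2%), beside 40 of 353 at 5′ ends (11.3%).

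The large losses were at weak regions. The median region of the set had 10.2 CPM in WT under SMADi, and 16 of the 17 regions over 2-fold lower in KO and 15 of the 16 in DATG were under that, the exception in both being ZNF439 at 13.7. Among the 202 regions under the median of all libraries, 34 were lower in KO (16.8%) and 35 in DATG (17.3%), and among the 203 above it 18 (8.87%) and 17 (8.37%). A region lowered in some libraries has a lower mean for that reason too, so this split partly follows from the losses. Regions within 250 bp of a start were lower in KO at 17 of 188 (9.04%), and those further from it at 28 of 181 (15.5%). The regions just inside the limit of 1 kb were ZNF888 at 995 bp with -1.11 in KO, ZNF274 at 952 bp with -1.75 and ZNF20 at 938 bp with -0.08, and those just outside were ZNF253 at 1010 bp with 0.00, ZNF524 at 1015 bp with 0.45 and ZNF724 at 1020 bp with 0.27.

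By position, the share of losses under SMADi was highest in C6 for KO and in C2 for DATG. KO was lower at 13 of 37 regions of C6 (35.1%), 4 of 17 of C2 (23.5%), 8 of 51 of C3 (15.7%), 4 of 28 of C7 (14.3%), 8 of 79 of C8 (10.1%), 4 of 43 of C9 (9.3%), 6 of 65 of C10 (9.23%) and 4 of 54 of C4 (7.41%). In C1 and C5, with 8 and 5 regions, it was lower at 0, and outside the clusters at 1 of 18. DATG was lower at 5 of 17 in C2 (29.4%), 10 of 37 in C6 (27.0%), 9 of 51 in C3 (17.6%), 4 of 28 in C7 (14.3%), 10 of 79 in C8 (12.7%), 6 of 65 in C10 (9.23%), 4 of 54 in C4 (7.41%) and 3 of 43 in C9 (6.98%). Over all regions 21.6% were lower in KO and 17.4% in DATG. In KO only C6 and C2 were above that share, C2 narrowly. In DATG C2 and C6 were above it, C3 was near it and the others were under it. C6 had 0 regions higher in KO, while C9 and C10 had 8 each (18.6% and 12.3%), beside 17.9% of all regions. The C6 count was 13 also without the library labelled KO day 1 replicate b. Clusters hold different numbers of regions and of left-out genes, which are not counted, and differences between them were not tested.

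Within C6 the KO losses were next to each other in 5 consecutive genes, ZNF829, ZNF568, ZNF585B, ZNF383 and ZNF875, in the order of genes with a region. Their sizes differed widely, with -1.04 at ZNF829, -0.69 at ZNF568, -5.69 at ZNF585B, -0.27 at 1 region of ZNF383 and -1.97 at ZNF875. ZNF829 and ZNF568 start back to back, at 36916291 on the minus strand and 36916332 on the plus strand, so they are hardly separate positions. ZNF420, which had no region, and the left-out ZNF585A lie between ZNF568 and ZNF585B and were passed over. The ZNF383 value, with an adjusted p of 0.029, did not pass under 7 of the alternatives, where the adjusted p reached 0.205 without WT day 5 replicate b, so the run rests on a call near the threshold. In DATG the values were -0.93, -0.37, -1.15, -0.18 and -2.26, and all but ZNF383 passed. The longest run of DATG was ZNF577, ZNF649, ZNF613 and ZNF350 in C8, and the same 4 genes formed a run in KO. Without KO day 1 replicate b ZNF577 was not called in KO (-0.51, adjusted p = 0.0556), which leaves 3 genes, and ZNF613 did not pass with DESeq2 (adjusted p = 0.0654). Genes within the 10 clusters that had a lower region numbered 41 of 189 in KO (21.7%), and of the 68 genes directly beside at least 1 lower gene 22 were lower (32.4%), or 20 without KO day 1 replicate b (29.4%). In DATG these were 45 of 189 (23.8%) and 19 of 76 (25.0%). Under BMP4 15 of 182 genes were lower in KO (8.24%) and 4 of the 29 beside a lower gene (13.8%), and in DATG 0 of 15. Genes that start back to back count as separate neighbours in these shares.

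Along the length of the clusters the last part, towards the long-arm end, had the smallest share among the genes kept by the rule. The left-out genes, often lower in KO, are not counted. Of these ZNF667, ZNF471 and ZNF835 lie late in C9 and ZNF229 late in C7. ZNF414, ZNF585A, ZNF610 and ZNF671 lie earlier in their clusters. The shares with them were not examined. With each cluster divided by gene order into 3 parts, genes with a loss under SMADi in KO numbered 16 of 63 in the first (25.4%), 18 of 63 in the middle (28.6%) and 7 of 63 in the last (11.1%). Without KO day 1 replicate b these were 16, 17 and 8. In DATG they numbered 17 (27.0%), 19 (30.2%) and 9 (14.3%). Under BMP4 KO had 7 of 61, 7 of 60 and 1 of 61, and DATG 4, 2 and 2. A gene can count through any of its regions and the lines share their WT libraries, so the series of counts are not independent of each other.

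**Figure D4:**
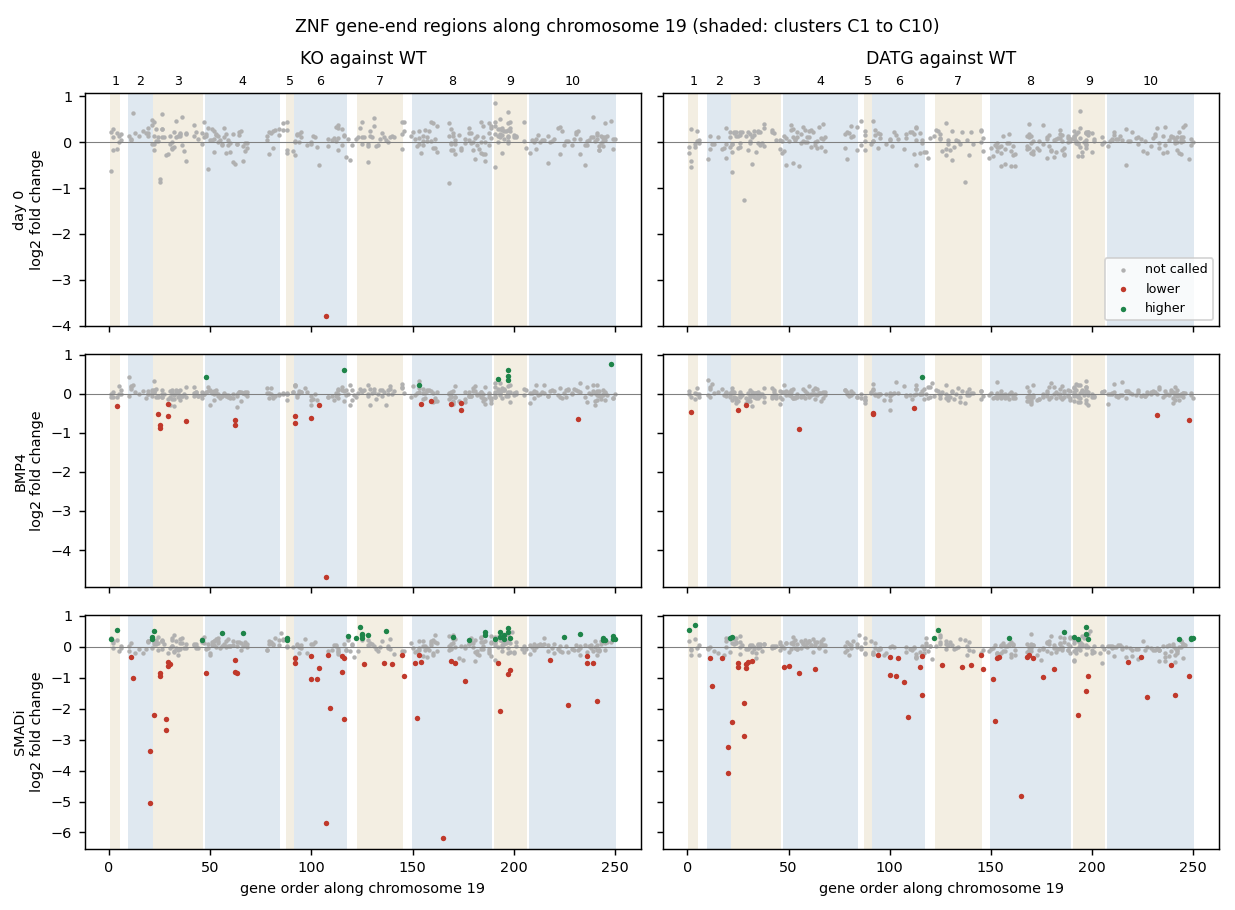
Log2 fold change of each chromosome 19 zinc-finger end region against WT, by gene order along the chromosome, with 1 row per table (day 0, BMP4, SMADi) and KO and DATG in columns. Shaded bands are the 10 clusters, numbered above, grey points were not called, red were lower and green higher; called losses of over 2-fold under SMADi appear in C2, C3, C6, C8, C9 and C10, with ZNF528 at -6.18 in KO.

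**Figure D5:**
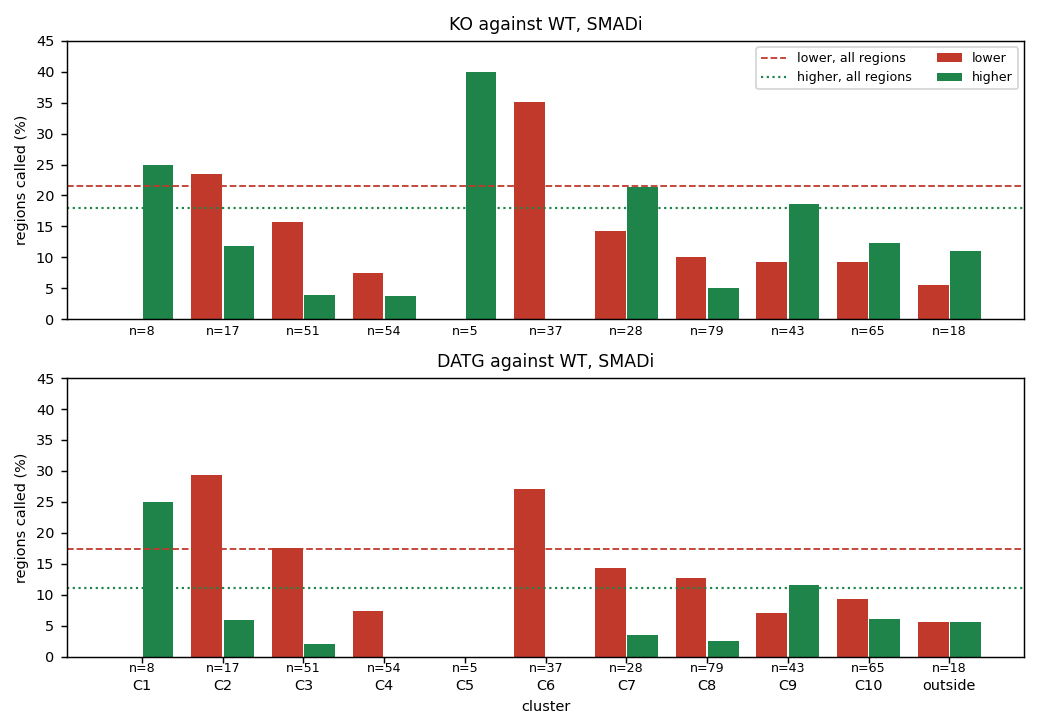
Percent of regions called lower (red) and higher (green) than WT under SMADi in each cluster and outside the clusters, for KO above and DATG below. Bars start at 0, n is the number of regions, and the dashed and dotted lines are the percentages of all regions called lower and higher; C6 reaches 35.1% lower in KO with no region higher.

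Gains under SMADi were under 2-fold. The largest among those called in both lines were at ZNF57 in C1 and ZNF576 in C7. ZNF57 had 13.8 to 18.8 CPM in WT, 14.6 and 17.1 on day 1, 23.5 on day 4 and 27.8 and 27.5 on day 5 in KO, and 23.8, then 19.8 and 23.0, then 28.6 in DATG. DATG lay above WT throughout, and KO overlapped WT on day 1. The differences were 0.52 ± 0.09 (adjusted p = 1.56e-05) and 0.69 ± 0.10 (adjusted p = 3.68e-07, edgeR). ZNF576 gained 0.63 ± 0.10 in KO (adjusted p = 7.05e-06) and 0.53 ± 0.11 in DATG (adjusted p = 0.000359), the latter falling to 0.31 without DATG day 5 replicate a (adjusted p = 0.137). ZNF580 in C9 moved both ways, with 0.61 ± 0.15 and 0.41 ± 0.16 at 44 bp from its end and -0.90 and -1.44 at 804 bp. The DATG gain at 44 bp was 0.02 without DATG day 5 replicate a (adjusted p = 0.962).

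In WT, SMADi raised 48 of the 405 regions from day 1 to day 5 (11.9%) and lowered 18 (4.44%), where 23.9% of all regions were higher and 17.1% lower. Scaled by DESeq2's size factors the counts were 32 and 23, and scaled by total counts 26 and 33, so the balance of calls depends on the scaling. Over all regions total counts gave 21.2% higher and 20.9% lower, and the members' median stayed 0.106 to 0.107 above that of all regions under the 3 scalings. The calls in either direction ran from 36 without WT day 1 replicate b to 112 without WT day 5 replicate b, and were 39 without WT day 1 replicate a. ZNF444 in C9 and ZNF320 in C8 rose the most. ZNF444 had 0.781 and 0.780 CPM on day 1, 3.38 and 3.18 on day 4 and 8.23 and 10.8 on day 5 in WT, a rise of 3.63 ± 0.30 (adjusted p = 3.59e-13, edgeR), and it reached 12.9 and 18.6 in KO and 15.3 in DATG on day 5. ZNF320 went from 0.901 and 0.650 to 8.38 and 5.89 in WT, 3.14 ± 0.35 (adjusted p = 7.65e-10), but stood at 2.58 and 2.56 in KO and 2.55 in DATG on day 5. The 3′ end regions of ZNF607 and ZNF565 fell in WT, by -2.21 and -1.81, and a 3′ end region of ZNF296 by -1.77.

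The corepressor and heterochromatin genes through which KRAB zinc-finger proteins act were counted in the same way over a list of 23. They had 39 regions in 18 genes at day 0, 52 in 18 under BMP4 and 50 in 19 under SMADi. TRIM28 itself had no region in any condition, and neither had PPHLN1, UHRF1 and CHD3, so the counts do not cover them. At day 0 none was called in either line. Under BMP4 KO was lower at 2, at CBX3, a heterochromatin protein, and DNMT3B, a DNA methyltransferase, and higher at 1, at SETDB1, while DATG had none. The KO shares were 3.85% lower and 1.92% higher, under the 12.4% and 9.1% of all regions. Under SMADi KO was lower at 2 (4.0%, beside 21.6% of all regions), at EHMT1 and HDAC1, which each had another region higher. It was higher at 13 (26.0%, beside 17.9%), at CBX1, CBX3, SUV39H1, SUV39H2, EHMT1, EHMT2, DAXX, DNMT3B, HDAC1 and CHD4. DATG was lower at 1 (2.0%, beside 17.4%), at HDAC1, and higher at 4 (8.0%, beside 11.1%), at CBX3, DNMT3B and HDAC1.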

How the data were processed

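ATAC-seq libraries of 3 H1 lines were compared within each of 3 deposited tables of read counts per region, 1 per condition. The authors called peaks with MACS2 on GRCh38, per the submitters' processing notes; not given in the sources used here are the aligner, peak settings, treatment of duplicates and why the tables differ in regions. Whether replicates were separate cultures is not stated, so p-values measure the spread between libraries.

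Regions were assigned to the nearest end of a RefSeq protein-coding gene (GRCh38.p14). Counts were scaled by TMM and tested over all regions with edgeR 4.0.16 (quasi-likelihood, 1 mean per line and day, filterByExpr; R 4.3.3), with Benjamini-Hochberg adjustment and calls at 0.05. Line differences are means over days of the within-day difference. CPM are TMM-scaled. Scripts were tested on simulated data. Alternatives were DESeq2 1.42.0, other scalings, no filter, a replicate block, a distance of 200 bp and leaving out each library. The groups, lists and tests were chosen with earlier results of these data known. Genes were named by rank of fold change, with neighbours and the highest region per cluster; ZNF829, ZNF524, ZNF274, ZNF350, ZNF559, ZNF888 and genes listed by day were named after their values were seen. Counting intervals are not given. Protein features were not analysed here.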

Additional observations from a re-analysis of the deposited data

Results flagged for a closer look

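Direct differences between the KO and DATG lines, and between the changes of KO and WT from day 1 to day 5, drew attention to these regions. By edgeR's quasi-likelihood test, KO and DATG differed at 4 regions at day 0, with log2 differences (KO minus DATG) of -3.62 at ZNF585B, -0.69 at ZNF431, 0.56 at ZNF486 and 0.82 at ZNF132. Under BMP4 they differed at 13 regions. KO was lower at ZNF585B (-4.88), at both regions of ZNF431 (-0.80 and -0.77), at both of ZNF441 (-0.69 and -0.39), and at ZNF44 (-0.49), ZNF829 (-0.46) and ZNF568 (-0.30). KO was higher at ZNF555 (0.37), ZNF653 (0.48), ZNF580 (0.54), ZNF486 (0.78) and ZNF132 (1.42). Under SMADi they differed at 4 regions, by -4.54 at ZNF585B, -0.66 at ZNF431, 0.81 at ZNF486 and 1.10 at ZNF132.

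The change from day 1 to day 5 of BMP4 differed between KO and WT at 2 regions, by -2.34 at ZNF587B and -0.90 at ZNF8. The causes of these differences were not tested.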

How the results depend on the processing

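Leaving out each library gave these ranges of regions called. At day 0 KO lower ran from 1 to 2, KO higher from 0 to 0, DATG lower and higher from 0 to 0, and KO against DATG from 2 to 4, with 2 without KO day 0 a or b. Under BMP4 KO lower ran from 16 to 22, KO higher from 6 to 11, DATG lower from 7 to 13, DATG higher from 0 to 3 and KO against DATG from 8 to 13, with 8 without KO day 1 a. Under SMADi KO lower ran from 41 to 60, KO higher from 19 without KO day 4 b to 77 without WT day 5 b, DATG lower from 41 to 66, DATG higher from 3 without DATG day 5 a to 49 without DATG day 1 a (33 without WT day 5 b, 11 without DATG day 4 a or WT day 1 a, 10 without DATG day 4 b), and KO against DATG from 1, without DATG day 5 a or KO day 4 b, to 5. WT day 5 against day 1 ran from 60 to 119 under BMP4 (60 without WT day 1 a, 65 without WT day 5 a, 69 without WT day 5 b) and from 36 to 112 under SMADi (36 without WT day 1 b, 39 without WT day 1 a, 112 without WT day 5 b). The KO change between days ran from 0, without KO day 1 b or KO day 5 a, to 5, without KO day 5 b, and the DATG change from 0 to 1. Losses over 2-fold under SMADi ran from 15 to 19 in KO and from 15 to 21 in DATG. Leaving out the only library of a day removes that day from the contrast.

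DESeq2's test called fewer regions: 1 for KO against DATG at day 0; under BMP4 13 lower and 4 higher in KO, 5 lower and 0 higher in DATG, 7 for KO against DATG, 68 over the days in WT and 0 for the KO change; under SMADi 11 higher in DATG and 41 over the days in WT. Scaling by total counts gave 1 lower in DATG at day 0, 15 higher in KO, 3 higher in DATG and 1 for the KO change under BMP4, and 21 higher in KO and 8 higher in DATG under SMADi. A distance of 200 bp leaves 190 regions under BMP4 and 197 under SMADi: 8 lower and 1 higher in KO, 3 lower and 0 higher in DATG, 6 for KO against DATG, 60 over the days in WT and 0 for the KO change under BMP4, and 19 lower and 21 higher in KO, 20 lower and 8 higher in DATG and 41 over the days under SMADi, with 6 over 2-fold lower in each line. Fewer regions were tested there. The replicate block gave 2 higher in DATG under BMP4. Deviations of same-lettered libraries correlated at -0.169 to 0.17. Under BMP4 3 of 15 pairs of groups were over 0.1, and at day 0 and under SMADi 0 of 3 were. Counting noise lowers such correlations, so whether the letters pair the libraries was not tested.

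Among 235 calls on single named regions, 129 were lost under at least 1 alternative and 0 of 6065 alternative values reversed direction. DESeq2 lost 67, total counts 44, the replicate block 13, DESeq2's size factors 10 and no filter 0. Weak regions limit the smaller differences: those over 2-fold lower under SMADi had a median of 4.74 CPM in WT.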

Other observations

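Of the 200 genes with a region, 7 had one in the SMADi table alone: ZNF320, ZNF444, ZNF470-DT, ZNF528, ZNF536, ZNF562 and ZNF875. ZNF528, ZNF562 and ZNF875 were among the genes with the largest losses in both edited lines, and ZNF444 and ZNF320 were those that rose most in WT under SMADi. Since each table has its own regions, what the reads show at these positions in the other conditions was not analysed here.

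ZNF607 had a 3′ region that was higher than WT under BMP4 (0.61 in KO and 0.42 in DATG) and lower under SMADi (-2.35 and -1.56). The tables were not tested against each other.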
